A study of Mus musculus with 7 samples.

Results

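Messenger RNA levels of the endoplasmic reticulum (ER) calcium pumps, the IP3 receptor calcium channels and the Stim and Orai proteins of store-operated calcium entry were examined in calreticulin knockout and wild type mouse embryonic stem cells. The genes were chosen by symbol: Atp2a2 and Atp2a3, Itpr1, Itpr2 and Itpr3, Stim1 and Stim2, and Orai1, Orai2 and Orai3. Of these 10 genes, 9 were represented on the array by 24 probe sets out of 45037, and Itpr1 was not analysed here. Atp2a2 and Itpr2 had 6 probe sets each, Itpr3 and Orai3 had 1 each, and the other genes had 2 each.

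The knockout group held 5 libraries (KO1 to KO5) of D3 cells, a mouse embryonic stem cell line, in which the calreticulin gene Calr had been ablated. The wild type group held 2 libraries (WT1 and WT2) of D3 cells. Each library was a pool of at least triplicate cultures harvested together, went onto its own Affymetrix mouse genome array, and was described by the submitters as a separate biological replicate. No treatment, time course or differentiation step is named in the labels, and they do not say how many knockout clones were used, so p-values speak only of the spread among these pools.

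Calcium is held in the ER lumen at a far higher concentration than in the cytosol, and calreticulin is one of the main luminal proteins that bind it. SERCA pumps carry calcium into the ER at the cost of ATP, and IP3 receptors let it out when the messenger IP3 binds them. When the store empties, the ER membrane proteins Stim1 and Stim2 sense the loss through a luminal calcium-binding domain and open Orai channels in the plasma membrane, which lets calcium in from outside for refilling. In mouse embryonic stem cells, which are not electrically excitable, release from this store and entry after its depletion are known routes of calcium signals.

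The targeted gene was low in every library labelled knockout: its brightest probe set had signals of 577 to 1064 in knockout libraries, against 10840 and 12460 in wild type libraries (log2 difference -3.68, SE 0.30, limma adjusted p = 0.00595). KO2 and KO3 stood apart from the rest. They correlated with each other at 0.985 across the 27022 tested probe sets and with the other 5 libraries at 0.843 to 0.902. The 5' probe set of the added control transcript Lys read 9320 and 6473 in KO2 and KO3, against 1579 to 2733 in the other 5. The wild type libraries also differed: WT1 correlated with WT2 at 0.935, while WT2 correlated with KO1, KO4 and KO5 at 0.960 to 0.972. Stem cell markers were bright in all libraries (summed signal of 10 genes 80381 to 112543 in knockout and 83531 to 98323 in wild type libraries). Of the 10, 0 passed the test. Pou5f1 read 4891 and 4687 in KO2 and KO3, and 8770 to 11549 in the other knockout libraries. Its wild type signals were 11726 and 10184. Tdgf1 went the other way, at 14287 and 15929 in KO2 and KO3, and 10428 to 11867 in the other knockout libraries. Its wild type signals were 10711 and 10997. The 10 fibroblast or feeder markers summed to 4560 and 4459 in KO2 and KO3, to 1064, 1826 and 1123 in KO1, KO4 and KO5, and to 2132 and 1766 in WT1 and WT2. Of the 10, 9 were tested and 0 passed, 5 had a positive difference and none was at 0. Col1a2 read 1519 and 1443 in KO2 and KO3, and 159 to 237 in the other knockout libraries, against 375 and 251 in wild type libraries. Not every marker of this list followed it. Thy1 read 310 and 292 in KO2 and KO3, and 124 to 403 in the other knockout libraries, against 405 and 217 in wild type libraries. Col6a3 read 131.5 and 165.2 in KO2 and KO3, and 130.3 to 164.6 in the other knockout libraries, against 214 and 145 in wild type libraries. The part of these markers and of the control signal in the results was not tested. The 7 primitive endoderm markers summed to 10034 and 9383 in KO2 and KO3, and to 5891 to 6621 in the other knockout libraries, against 8706 and 9855 in wild type libraries. Among them Lama1, a laminin gene, read 3162 and 3380 in KO2 and KO3, and 650 to 955 in the other knockout libraries. Its wild type signals were 429 and 1438. With its brightest probe set Sparc read 6174 and 5366 in KO2 and KO3, and 4137 to 4580 in the other knockout libraries. Its wild type signals were higher, at 7035 and 6317. A Sparc probe set nearly as bright showed no rise in KO2 and KO3 (4529 and 4591) over the other knockout libraries (4463 to 4958). The dimmest Sparc probe set was lower in KO2 and KO3 (148 and 169) than in the other knockout libraries (191 to 225). Dab2 was lower in KO2 and KO3, at 356.5 and 309, than in the other knockout libraries, at 560 to 869. Its wild type signals were 759 and 1150. Gata4 read 101 and 134 in KO2 and KO3, against 162 and 244 in wild type libraries. Sox17 read 103 and 71 there, against 195 and 283, and Gata6 read 128 and 110, against 119 and 417. Of 18 primitive endoderm, muscle and neural markers, 16 were tested and 0 passed. Fewer cells of a type and less RNA per cell cannot be told apart in such pooled samples. Signals are therefore given library by library, and the main differences also without KO2 and KO3.

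None of the ER calcium pump, IP3 receptor, Stim or Orai probe sets passed the test between knockout and wild type cells. Of the 24 probe sets, 19 had a mean log2 signal above the 40th percentile and were tested. At a limma adjusted p under 0.05 the count was 0 of 19, where 0.0296% of all probe sets passed (0.0111% higher and 0.0185% lower in knockout cells), and adjusted p ran from 0.575 to 0.982. At an unadjusted p under 0.05 the count was 1 of 19, a Stim2 probe set, where 8.42% of all probe sets lay. The 95% confidence intervals were wide. That of Itpr3 ran from -0.62 to 2.10 on the log2 scale, so the data leave room for large differences. Differences are knockout minus wild type on the log2(signal + 20.2) scale, so a change in a dim probe set is understated.

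Many of the highest signals lay in KO2 and KO3. Of the 19 probe sets, 12, from Atp2a2, Itpr2, Itpr3, Stim1, Stim2 and Orai1, had their 2 highest signals of the 7 libraries in KO2 and KO3, against 27% of all tested probe sets. None had its 2 lowest signals there, against 21% of all. The knockout and wild type signals did not overlap for 2 of the 19, an Orai2 and a dim Stim2 probe set, while 13.6% of all tested probe sets did not overlap, so that this count is no more than the background. Over the 19, the median difference was 0.34 with 15 above 0, where the median over all probe sets was 0.07 and 55.9% lay above 0. Since 6 of the 19 belong to Atp2a2, the median with 1 probe set per gene was lower, at 0.11. Over all genes that median was -0.0041. The median over all tested member probe sets was 0.22 without KO2, 0.12 without KO3, 0.52 without KO4 and 0.14 without WT2, and 0.16 with array weights. Without KO2 and KO3 together it was -0.01, with 8 of 18 above 0, and the median over all probe sets was 0.03. When arrays were centred on their medians, which moved the median of all probe sets to -0.05, 11 of the 19 lay above 0, and after quantile normalization 13 did.

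**Figure D1:**
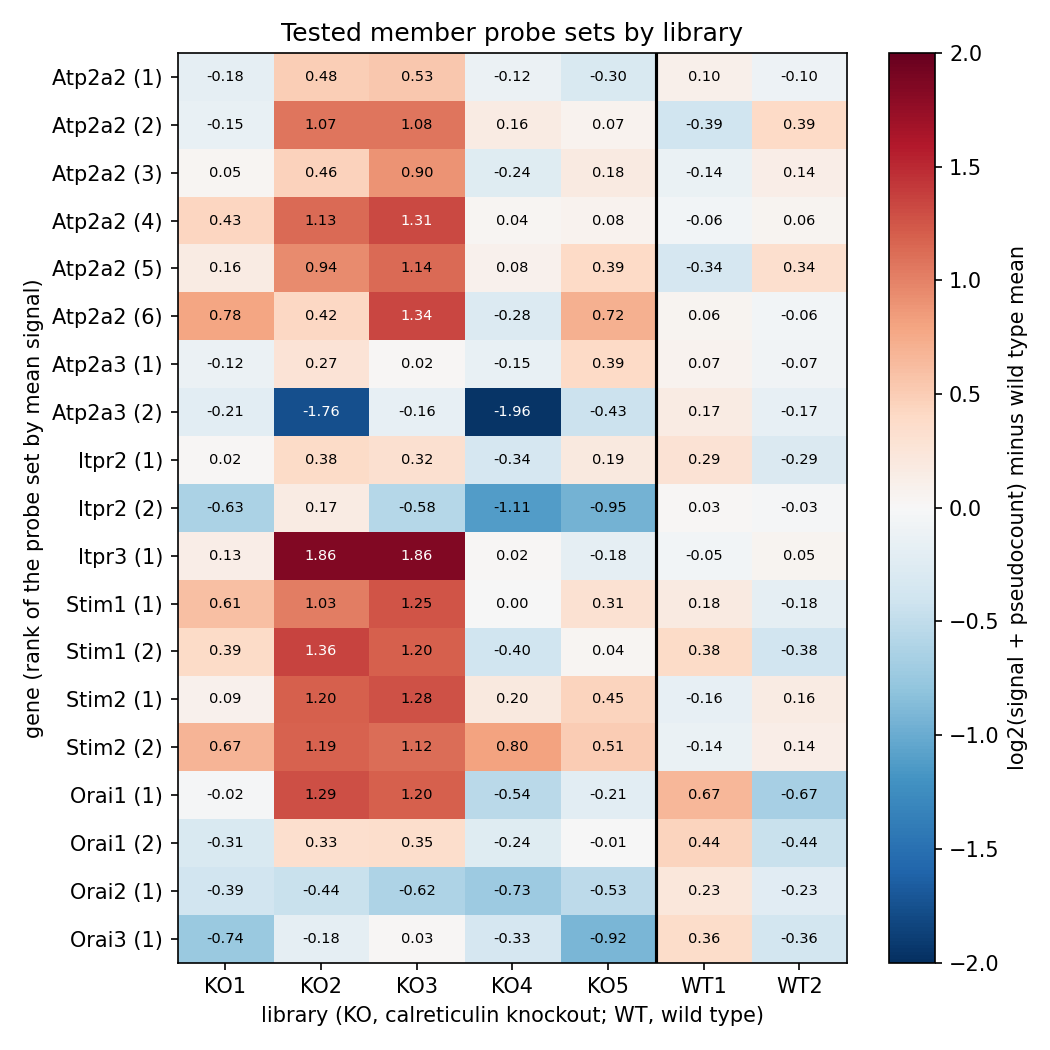
Log2(signal + 20.2) of each tested probe set minus its wild type mean, in the 5 knockout (KO) and 2 wild type (WT) libraries; rows are probe sets, numbered within a gene from the brightest. KO2 and KO3 stand out as dark red for Itpr3 (1.85 and 1.86), and also for Stim1, Stim2 and most Atp2a2 probe sets, while Orai2 is blue in all 5 knockout libraries.

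To show the genes behind these values as DNA, the 250 bases before the annotated start are given for the gene with the widest spread over libraries (Itpr3), for a Stim and an Orai gene that were high in the same 2 libraries (Stim2 and Orai1), and for the Orai gene that was low in all knockout libraries (Orai2). The sequences are RefSeq's, build GRCm38.p6, read 5′ to 3′ on the gene's strand. They lie at chr17:27057054-27057303, plus strand (Itpr3), chr5:53998273-53998522, plus strand (Stim2), chr5:123014824-123015073, plus strand (Orai1) and chr5:136170657-136170906, minus strand (Orai2). Capitals mark GC boxes (GGGCGG) and CCAAT boxes (CCAAT) on either strand.
Itpr3: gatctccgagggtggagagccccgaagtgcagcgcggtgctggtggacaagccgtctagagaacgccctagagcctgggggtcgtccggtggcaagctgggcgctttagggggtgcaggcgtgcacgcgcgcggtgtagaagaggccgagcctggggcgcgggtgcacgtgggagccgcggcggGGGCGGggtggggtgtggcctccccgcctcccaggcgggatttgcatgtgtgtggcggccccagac
Stim2: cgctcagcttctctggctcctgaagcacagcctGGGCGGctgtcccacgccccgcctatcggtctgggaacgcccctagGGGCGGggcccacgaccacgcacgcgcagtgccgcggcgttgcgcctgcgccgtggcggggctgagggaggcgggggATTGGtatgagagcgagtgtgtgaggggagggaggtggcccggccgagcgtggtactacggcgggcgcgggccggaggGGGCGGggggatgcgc
Orai1: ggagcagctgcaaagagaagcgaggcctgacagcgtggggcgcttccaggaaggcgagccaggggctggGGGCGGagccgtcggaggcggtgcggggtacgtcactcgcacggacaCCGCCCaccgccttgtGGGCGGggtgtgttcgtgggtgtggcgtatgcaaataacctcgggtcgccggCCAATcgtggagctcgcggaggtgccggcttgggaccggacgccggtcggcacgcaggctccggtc
Orai2: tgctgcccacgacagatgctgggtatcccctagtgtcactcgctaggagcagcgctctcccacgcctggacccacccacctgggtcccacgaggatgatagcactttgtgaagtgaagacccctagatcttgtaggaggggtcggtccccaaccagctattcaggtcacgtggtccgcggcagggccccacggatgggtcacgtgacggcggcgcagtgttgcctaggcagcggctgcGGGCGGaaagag
All 4 windows are rich in G and C, at 72% for Itpr3, 74.8% for Stim2, 70.8% for Orai1 and 63.6% for Orai2. A GC box, the site that Sp-family factors bind, was found in each of the 8 member promoters that the RefSeq table holds and in 32.7% of the 32851 windows of that length in the table. CCAAT, the core bound by NF-Y, was found in 4 of the 8, Stim2 and Orai1 among them, and in 33.8% of all windows. The ER stress element, CCAAT and CCACG with 9 bases between them (0.113% of all windows), and the cAMP response element TGACGTCA (1.55%) were in 0 of the 8. No window of Atp2a2 or Itpr1 was among those searched, so the counts do not cover the SERCA2 gene. Both strands were searched, and the ER stress element contains CCAAT. These are letter matches and were not set against binding data.

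Among the pumps, Atp2a2 (chromosome 5) encodes SERCA2, the SERCA pump found in nearly all cell types. Its brightest probe set read 7654, 12188, 12608, 7988 and 7067 in KO1 to KO5, against 9322 and 8126 in WT1 and WT2. KO2 and KO3 lay above both wild type libraries and the other 3 knockout libraries lay below both. The means were 9501 ± 2669 in knockout (SD, n = 5) and 8724 ± 846 in wild type libraries (SD, n = 2), a difference of 0.08 (95% interval -0.55 to 0.72, limma adjusted p = 0.921), and -0.20 without KO2 and KO3 (adjusted p = 0.849).

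The other 5 Atp2a2 probe sets had differences of 0.27 to 0.60, none past the test (limma adjusted p from 0.601 to 0.768). In 4 of them KO2 and KO3 were the highest libraries. The second brightest read 3226 and 3237 in KO2 and KO3, then 1376, 1702 and 1601 in KO1, KO4 and KO5, against 1155 and 2010 in wild type libraries. The mean of KO2 and KO3 was 2.04 times the wild type mean there, and that of the other 3 knockout libraries 0.986 times. The dimmest Atp2a2 probe set, at 33.2 to 143.8 in knockout and 42.2 and 47.2 in wild type libraries, did not follow this order, since KO1 and KO5 exceeded KO2 in it. The 6 probe sets thus agree that KO3 was above both wild type libraries, but they differ in the size of that excess, from 0.53 to 1.34 above the wild type mean on the log2 scale.

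Atp2a3 (chromosome 11) encodes SERCA3, a pump best known from blood and some epithelial cells. Its brighter probe set stayed between 310 and 462 in knockout libraries, against 365 and 329 in wild type libraries, with no library standing out (difference 0.08, 95% interval -0.51 to 0.67, limma adjusted p = 0.915). The dimmer probe set read 157, 40.2, 163.6, 32.6 and 131.8 in KO1 to KO5, against 210 and 162 in WT1 and WT2. KO2 and KO4 were low in it, while KO3 lay between the wild type libraries (difference -0.90, 95% interval -2.10 to 0.29, adjusted p = 0.582). The 2 probe sets of Atp2a3 therefore did not move together, and neither followed the KO2 and KO3 pattern of Atp2a2. Without these libraries they stood at 0.04 and -0.87.

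Of the release channels, Itpr3 (chromosome 17), which encodes IP3 receptor type 3, had the widest spread over libraries of any member gene by its brightest probe set. It had signals of 2452 and 2453 in KO2 and KO3, and of 726, 673 and 584 in KO1, KO4 and KO5, against 638 and 689 in WT1 and WT2. The first pair was 3.70 times the wild type mean, and the other 3 knockout libraries were 0.996 times it and spread over both sides of the wild type values. The knockout mean was 1377 ± 983 (SD, n = 5) and the wild type mean 664 ± 35.9 (SD, n = 2), a difference of 0.74 (SE 0.61, limma adjusted p = 0.658). Without KO2 and KO3 the difference was -0.01 (95% interval -0.58 to 0.56, adjusted p = 0.994).

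The genes whose profile over the 7 libraries came closest to that of Itpr3 were Ndc1, a nuclear pore membrane protein gene, the ephrin receptor gene Ephb3, the ER-membrane J-domain protein gene Dnajc1, the potassium channel gene Kcnk5 and Lrig3. Their root mean square distances to Itpr3 were 0.09 to 0.11 on the centred log2 scale, among 13119 genes compared. Ndc1 had 5024 and 5402 in KO2 and KO3, and 1440 to 1566 in the other knockout libraries, against 1408 and 1558 in wild type libraries. Dnajc1 had 769 and 723 in KO2 and KO3, and 191 to 208 in the other knockout libraries, against 180 and 219 in wild type libraries. All 5 share the step between these 2 libraries and the rest, which follows from picking them by closeness to Itpr3. KO2 and KO3 were the 2 highest of the 7 libraries at 27% of all tested probe sets.

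Itpr2 (chromosome 6) encodes IP3 receptor type 2, the most IP3-sensitive of the receptor types. All of its 6 probe sets were dim, and 4 were under the filter. The brightest had signals of 56.0 to 105.3 in knockout libraries, against 97.9 and 58.7 in wild type libraries, and the groups overlapped (difference 0.11, limma adjusted p = 0.893). In it KO2 and KO3, at 105.3 and 100.4, lay above both wild type libraries, and KO4, at 56.0, lay below both. The second read 59.6, 118.5, 62.8, 37.1 and 43.9 in KO1 to KO5, against 106.0 and 101.0 in WT1 and WT2. Every knockout library except KO2 lay below both wild type libraries there (difference -0.62, adjusted p = 0.579), and without KO2 and KO3 the difference was -0.90 (95% interval -1.59 to -0.20, unadjusted p = 0.0170, adjusted p = 0.820). One of the probe sets under the filter read 265.4 and 191.6 in KO2 and KO3, and 6.5, 12.8 and 8.5 in KO1, KO4 and KO5, against 59.0 and 12.2 in WT1 and WT2. It was not tested, and the other 3 under the filter read at most 66.7 in any library.

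Both store sensors had a positive difference with each of their probe sets, and none passed the test. Stim1 (chromosome 7), the main sensor that activates Orai channels, had signals of 412, 559, 655, 263 and 332 in KO1 to KO5 with its brighter probe set, against 302 and 230 in WT1 and WT2. All knockout libraries except KO4 were above both wild type libraries. The means were 444 ± 161 (SD, n = 5) and 266 ± 50.6 (SD, n = 2), a difference of 0.64 (95% interval -0.18 to 1.46, limma adjusted p = 0.579). The dimmer probe set read 515 and 458 in KO2 and KO3, and 253, 138 and 194 in KO1, KO4 and KO5, against 251 and 140 in wild type libraries (difference 0.52, adjusted p = 0.692). Without KO2 and KO3 the 2 probe sets stood at 0.30 and 0.01, and without WT2 the dimmer one stood at 0.14.

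Stim2 (chromosome 5), the sensor that responds to smaller drops of the store and helps to set resting calcium, was the member with the smallest unadjusted p. Its brighter probe set read 638, 1401, 1480, 688 and 824 in KO1 to KO5, against 533 and 669 in WT1 and WT2. Of the knockout libraries only KO1 lay between the wild type signals, and KO2 and KO3 were 2.40 times the wild type mean (difference 0.64, 95% interval -0.23 to 1.52, limma adjusted p = 0.587). The dimmer probe set had signals of 124.8, 186.5, 177.5, 137.8 and 109.6 in KO1 to KO5, against 62.5 and 79.6 in WT1 and WT2. All 5 knockout libraries exceeded both wild type libraries, as at 7.8% of all tested probe sets. The means were 147 ± 33.4 (SD, n = 5) and 71.1 ± 12.1 (SD, n = 2), 2.07-fold apart.

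That Stim2 probe set differed by 0.86 (SE 0.28, 95% interval 0.24 to 1.48) at an unadjusted limma p of 0.0119, which after adjustment over all probe sets was 0.575. It kept its sign without KO2 and KO3, at 0.66 (95% interval 0.02 to 1.31, unadjusted p = 0.0454, adjusted p = 0.820), and KO1, KO4 and KO5 averaged 1.75 times the wild type mean. With the brighter probe set the same 3 libraries averaged 1.19 times the wild type mean and the difference without KO2 and KO3 was 0.25 (adjusted p = 0.868). The 2 probe sets thus share a direction and differ in how far the other 3 knockout libraries stand above wild type.

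**Figure D2:**
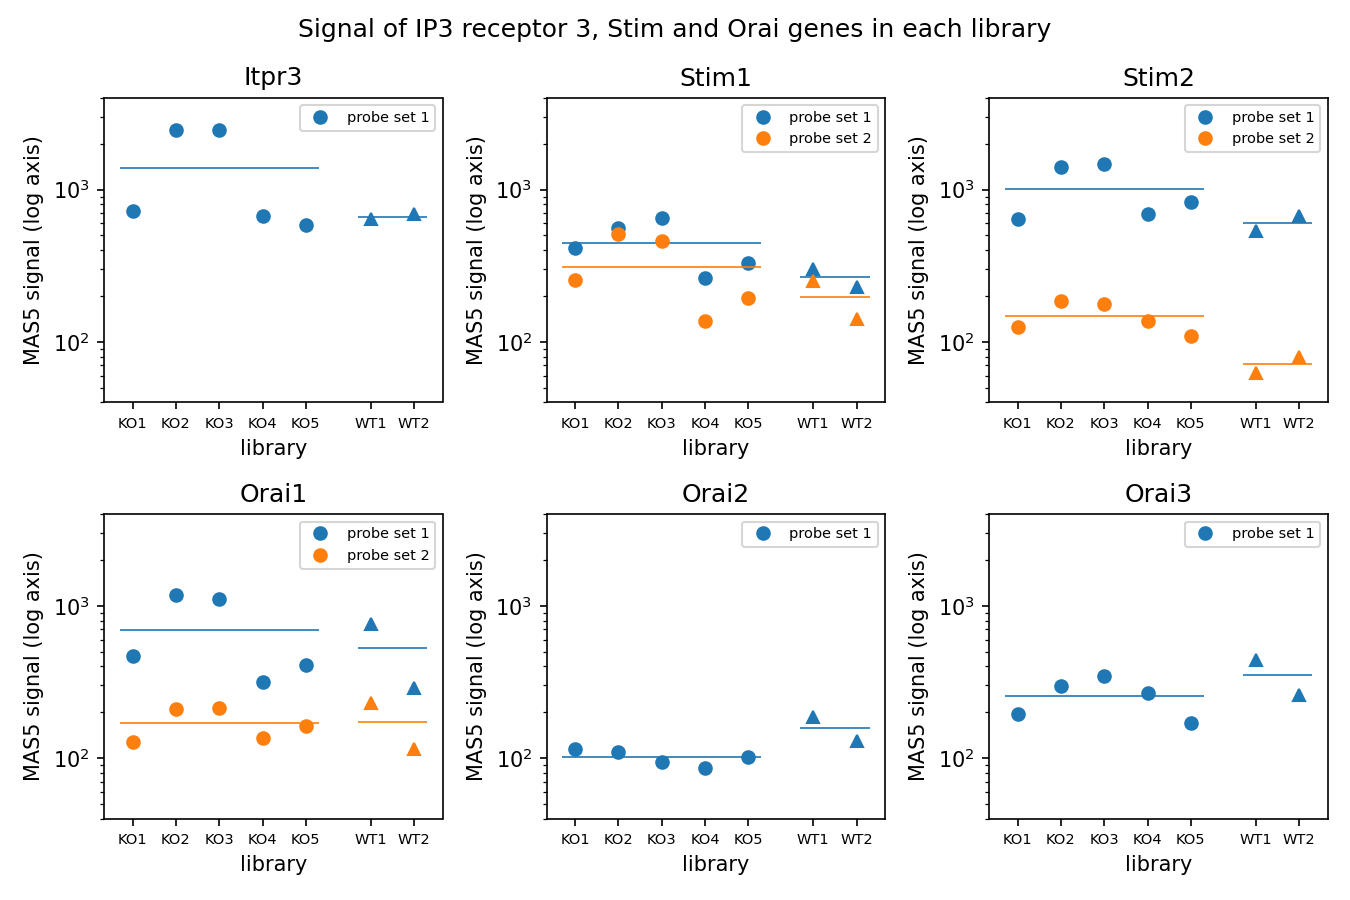
MAS5 signal on a log axis for the tested probe sets of Itpr3, Stim1, Stim2, Orai1, Orai2 and Orai3; circles are knockout (KO) and triangles wild type (WT) libraries, lines are group means, and probe set 1 is the brighter. KO2 and KO3 are the highest libraries for Itpr3, with 2452 and 2453, and for both Stim genes, and all 5 knockout signals of Orai2 lie below both wild type signals.

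The 3 Orai genes encode the pore subunits of the entry channel, and they did not share a pattern. Orai1 (chromosome 5), the subunit of the classical calcium release-activated channel, had signals of 465, 1181, 1113, 318 and 406 in KO1 to KO5, against 762 and 289 in WT1 and WT2, with its brighter probe set. KO2 and KO3 exceeded both wild type libraries, which were themselves far apart, and the other 3 knockout libraries lay between them (difference 0.34, 95% interval -0.94 to 1.63, limma adjusted p = 0.825). The dimmer probe set differed by 0.02 (adjusted p = 0.982), and WT1, at 229, was its highest library, above KO2 and KO3 at 210 and 214. Without KO2 and KO3 both were below 0, at -0.26 and -0.19.

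Orai2 (chromosome 5), a subunit that can join Orai1 in mixed channels and lower their current in T cells, was lower in every knockout library with its brighter probe set. It read 114.2, 109.8, 94.0, 85.7 and 101.9 in KO1 to KO5, against 186 and 130 in WT1 and WT2, and the groups did not overlap, as at 5.85% of all tested probe sets in this direction. The knockout mean was 101 ± 11.6 (SD, n = 5) and the wild type mean 158 ± 39.8 (SD, n = 2), a ratio of 0.639. The difference of -0.54 (SE 0.25, 95% interval -1.11 to 0.02) had an unadjusted limma p of 0.0575 and an adjusted p of 0.575. Of the 18 probe sets tested in both fits it moved least when KO2 and KO3 were left out. Their mean was 0.644 times the wild type mean, that of the other 3 was 0.636 times it, and without KO2 and KO3 the difference was -0.55. The second Orai2 probe set was under the filter and overlapped between the groups, at 16.4 to 83.5 in knockout and 49.7 and 70.6 in wild type libraries.

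Orai3 (chromosome 7), the subunit found only in mammals, read 195.6, 298.0, 347.3, 265.9 and 170.0 in KO1 to KO5, against 443.6 and 259.5 in WT1 and WT2. No knockout library reached WT1, while KO2, KO3 and KO4 lay above WT2. The difference was -0.43 (95% interval -1.19 to 0.33, limma adjusted p = 0.645) and, without KO2 and KO3, -0.66 (adjusted p = 0.820). Its size turned on the wild type library, at -0.06 without WT1 and -0.79 without WT2. Orai2 and Orai3 were thus the member genes whose brightest probe set had a negative difference, although neither passed the test.

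**Figure D3:**
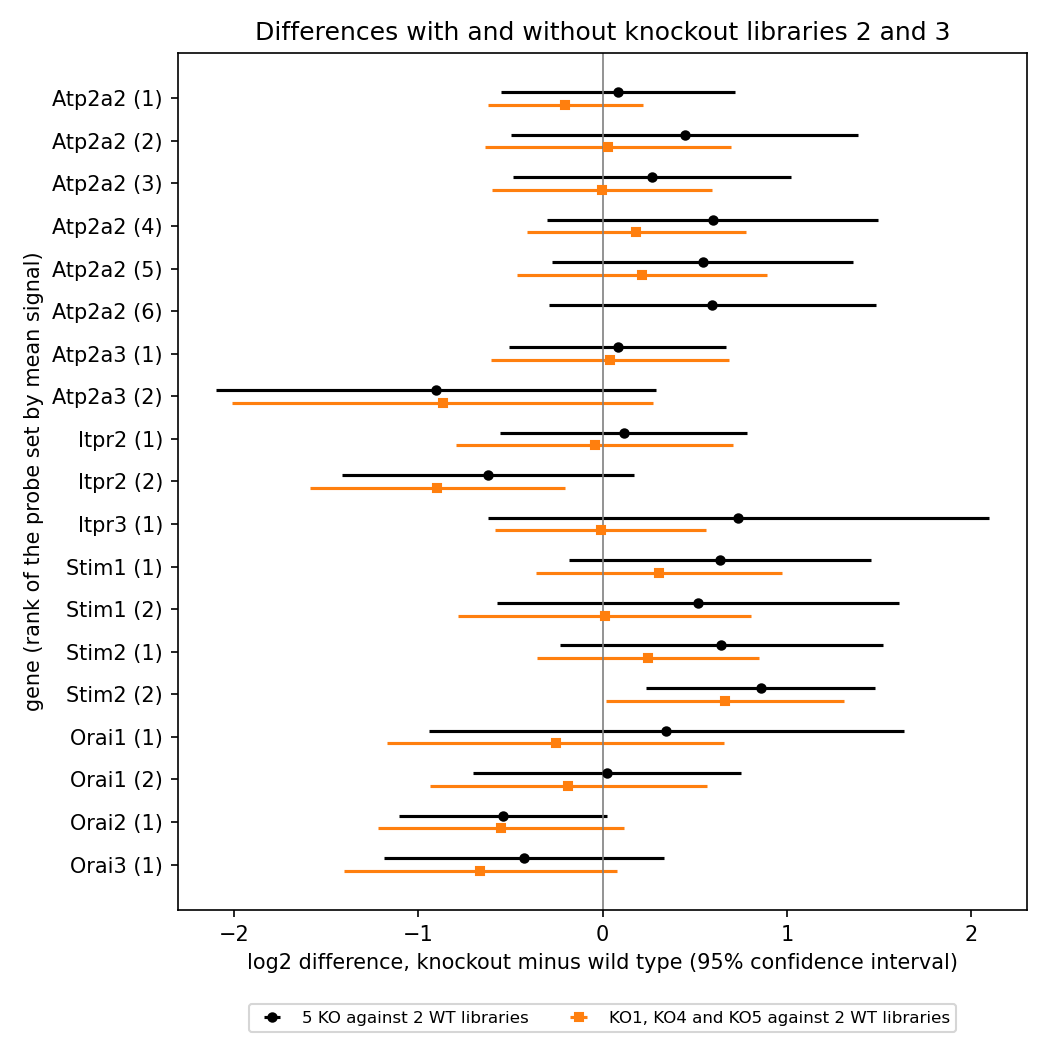
Log2 difference, knockout minus wild type, with its 95% confidence interval for each tested probe set, from all 5 knockout libraries (black circles) and from KO1, KO4 and KO5 alone (orange squares), each against the 2 wild type libraries. Intervals span 0 except for the dimmer Stim2 probe set in both fits and the second Itpr2 probe set in the smaller fit. Itpr3 lies at 0.74 with KO2 and KO3 and at -0.01 without them, Orai2 at -0.54 and -0.55; the dimmest Atp2a2 probe set is under the filter in the second fit.

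Other genes of cellular calcium handling gave 0 calls as well. Of a list of pump regulators, ryanodine receptors, IP3-metabolising enzymes, entry regulators, export pumps and mitochondrial uptake genes, 57 genes had a probe set and 70 of their 112 probe sets were tested. At a limma adjusted p under 0.05 the count was 0 of 70, and at an unadjusted p under 0.05 it was 7, of which 5 were higher and 2 lower, where 5.81% and 2.61% of all probe sets lay. The median difference of the 70 was 0.28, and it was 0.43 without KO4, 0.16 without WT1, 0.17 without WT2 and 0.13 without KO2 and KO3. By brightest probe set, 28 of 46 genes were above 0. Their median was 0.25, where that over all genes by brightest probe set was -0.0041.

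Among genes that act on the same store, all 4 tested SERCA-related genes had a positive difference (median 0.71). Their 6 tested probe sets ran from 0.16 to 0.83, where 55.9% of all tested probe sets lay above 0. Sln, the sarcolipin gene, was under the filter with both of its probe sets, whose untested differences were -0.35 and -0.30. Tmx1, an ER thioredoxin-like protein gene, read 6639 and 5885 in KO2 and KO3, and 2449, 3569 and 3198 in KO1, KO4 and KO5, against 1658 and 3099 in wild type libraries (0.83, limma adjusted p = 0.575). Atp2a1, the muscle-type SERCA1 gene, was dim, with signals of 116.8 to 267.9 in knockout and 149.2 and 56.4 in wild type libraries (0.72, adjusted p = 0.575). The IP3 receptor partner Erp44, an ER luminal oxidoreductase known to bind the type 1 receptor, read 4172 and 4104 in KO2 and KO3, and 1096, 1343 and 1120 in KO1, KO4 and KO5, against 1040 and 1237 in wild type libraries (0.77, adjusted p = 0.635). The dimmer Erp44 probe set read 395, 1801, 1618, 339 and 393 in KO1 to KO5, against 203.4 and 181.5 in wild type libraries (1.75, limma adjusted p = 0.575). In it all 5 knockout libraries lay above both wild type libraries, as at 7.8% of all tested probe sets. Bok, a Bcl2-family gene whose product binds IP3 receptors, read 249 to 457 in knockout libraries, against 1137 and 377 in WT1 and WT2, so its difference of -0.83 (adjusted p = 0.575) came with a wide gap between the wild type libraries.

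Of the entry regulators, Saraf encodes the protein that turns store-operated entry off again. Saraf was higher in all 5 knockout libraries than in either wild type library, as at 7.8% of all tested probe sets. It read 1856, 5457, 4988, 2162 and 1851 in KO1 to KO5, against 1582 and 1776 in WT1 and WT2 (difference 0.78, limma adjusted p = 0.587). The margin in KO1 and KO5 was small, and KO2 and KO3 carried most of the difference. Trpc2, a channel gene of the TRPC family, read 742.5 and 873.9 in KO2 and KO3 and 167 to 316 in the other knockout libraries. Its wild type signals were 195 and 266 (0.70, adjusted p = 0.663). The dimmer Trpc2 probe set read 199, 459, 558, 102 and 107 in KO1 to KO5, against 73.0 and 99.4 in wild type libraries (1.23, adjusted p = 0.575). Export and Golgi genes were led by the plasma membrane pump gene Atp2b1 (1.12, adjusted p = 0.575), with 3169 and 2916 in KO2 and KO3 and 792 to 1026 in the other knockout libraries, against 462 and 952 in wild type libraries. Slc8b1, the mitochondrial sodium-calcium exchanger gene, was next at 0.45 (adjusted p = 0.733). The dimmest Atp2b1 probe set read 229, 634, 506, 184 and 168 in KO1 to KO5, against 106 and 137 in wild type libraries (1.18, adjusted p = 0.575).

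For enzymes that make or break down IP3, the median difference over all 20 tested probe sets was -0.05, with 8 above 0, and by the brightest probe set of each of 12 genes it was -0.21, with 2 above 0. Itpka, which phosphorylates IP3, read 156.0, 152.4, 131.5, 179.0 and 134.1 in KO1 to KO5, against 251.6 and 450.9 in WT1 and WT2. The groups did not overlap, as at 5.85% of all tested probe sets in this direction, and KO2 and KO3 did not stand apart in it. Its difference was -1.07 (limma adjusted p = 0.575). Plcb4, a phospholipase C gene that makes IP3, was at 0.94 (adjusted p = 0.575), with 993 to 1554 in knockout libraries, against 397 and 1194 in wild type libraries.

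Genes of mitochondrial calcium uptake had differences of both signs, with 3 of 7 above 0. Micu3, a regulator of the mitochondrial uniporter, read 375, 1201, 1131, 368 and 357 in KO1 to KO5, against 157 and 222 in WT1 and WT2. All 5 knockout libraries lay above both wild type libraries, as at 7.8% of all tested probe sets. The difference was 1.55 (limma adjusted p = 0.575). Vdac1, the outer membrane channel gene, read 15821, 7797, 6416, 13160 and 8694 in KO1 to KO5, against 18241 and 15924 in WT1 and WT2. It was lower in all 5, as at 5.85% of all tested probe sets (difference -0.80, adjusted p = 0.575), by a small margin in KO1. The second brightest Vdac1 probe set was also lower in all 5. The third brightest overlapped between the groups, with KO1 at 11026 above WT2 at 9212. So did the fourth, with KO4 at 5656 above WT2 at 5207.

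**Figure D4:**
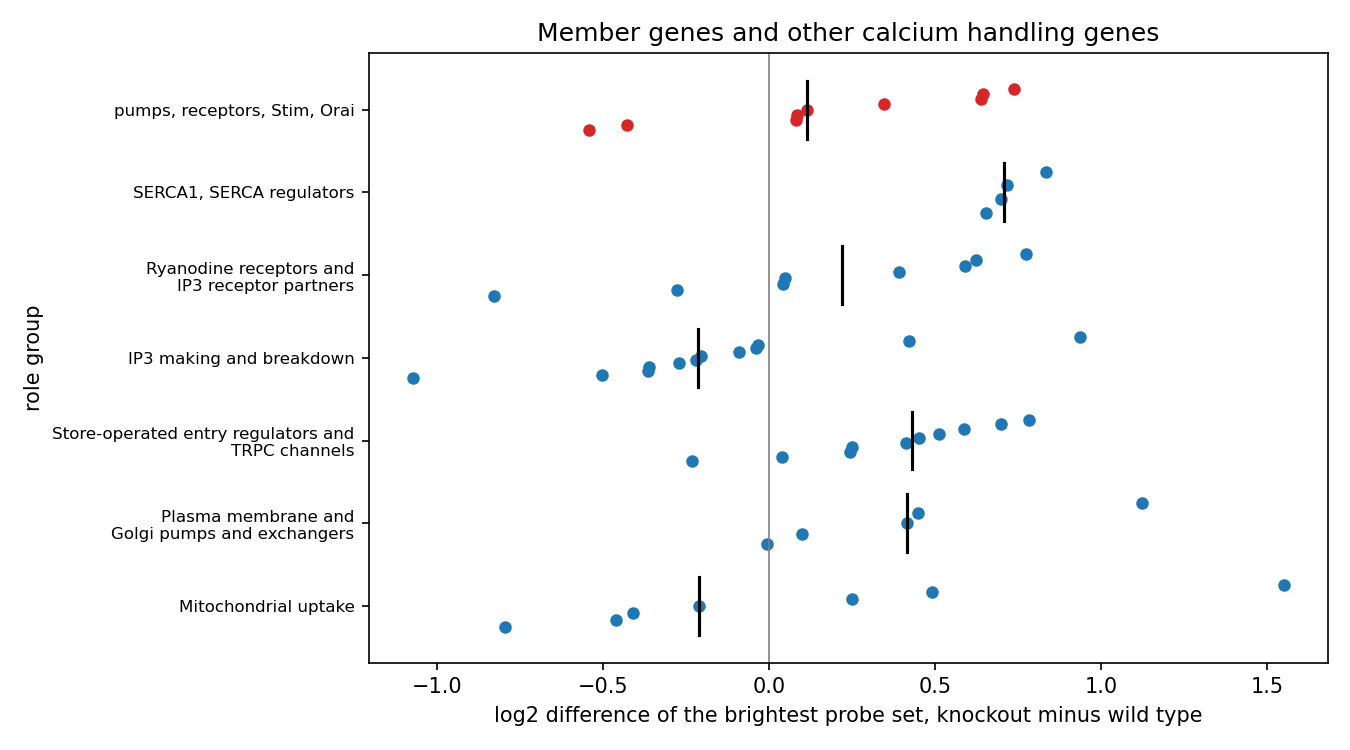
Log2 difference, knockout minus wild type, of the brightest tested probe set of each gene; the top row (red) holds the 9 pump, receptor, Stim and Orai genes, the other rows (blue) the 46 other calcium handling genes by role, and black bars are medians. The SERCA-related row has its median at 0.71 and the row of IP3 enzymes at -0.21 (-0.05 over all tested probe sets), and no gene passed the test.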

How the data were processed

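Total RNA was extracted with Trizol, labelled with biotin and hybridised to 1 array per sample, per the labels' protocols. The deposited values are intensities on a linear scale, 1 per probe set and array, and per the submitters' processing notes MAS5 made them, in a version not given in the sources used here. Each deposited array had a mean intensity of 500 once 2% of its probe sets were trimmed at either end, so the arrays were already scaled. Array medians ran from 92.6 to 124.9 and no further normalization was applied. The table used here holds no detection calls.

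From these, log2(signal + 20.2) was computed, 20.2 being the 20th percentile of all values. Of 45101 probe sets, 64 controls were left out, and 27022 whose mean log2 value exceeded the 40th percentile were tested with limma 3.58.1 in R 4.3.3 (lmFit, eBayes with a trend, two-sided, Benjamini-Hochberg adjustment over all tested). Gene names come from the platform annotation, updated through the RefSeq table of GRCm38.p6. The brightest probe set stands for a gene. The genes and lists were chosen with earlier results of these data known. All members and Calr were named. From each role group of the other calcium handling genes the 2 genes with the largest difference were named. Motifs were chosen after the members' values were seen. Alternatives were quantile normalization, median centring, other filters and pseudocounts, no trend, array weights, 1 probe set per gene, a replicate block, and leaving out libraries.

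On simulated data for this comparison (27022 probe sets, 200 changed), a log2 change of 1 was recovered in 4%, of 2 in 56%, of 3 in 84% and of 4 in 92%, with 3 false calls. Precision is limited by having 7 arrays. Figures were drawn with matplotlib 3.10.9.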

Additional observations from a re-analysis of the deposited data

How the results depend on the processing

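The count of member probe sets past the threshold was 0 in all 19 alternatives, and so was that of the other calcium handling genes. The count over all probe sets was 8 and became 5 without a filter, 4 with a filter at the 60th percentile, 2 with 1 probe set per gene, 15 with the replicate number as a block, 5 without KO2 and KO3 together, and 0 to 7 when 1 library was left out. It was 0 without WT1 or without WT2, 4 without KO1, and 5 without KO4 or KO5. With 1 library left out the Calr difference ran from -3.78 to -3.52, and it lost its call without WT1 (-3.58, limma adjusted p = 0.253) or WT2 (-3.78, 0.129), where the lone wild type library is assumed to vary like the others. The labels do not say that a replicate number pairs libraries: deviations of the same-numbered libraries correlated at 0.109 for number 1 and -0.00979 for number 2, and the block called 0 members.

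The differences whose sign turned round were uncalled, and the cause was not tested. The brightest Atp2a2 probe set (0.08) became -0.036 with median centring, -0.082 with array weights and -0.20 without KO2 and KO3, and ran from -0.031 to 0.18 when 1 library was left out. Another Atp2a2 probe set (0.27) became -0.0045 without KO2 and KO3. The brighter Atp2a3 probe set became -0.082 with quantile normalization and -0.038 with centring. The brightest Itpr2 probe set became -0.0044 with centring and -0.043 without KO2 and KO3, and ran from -0.18 to 0.40 with 1 library left out. Itpr3 (0.74) became -0.011 without KO2 and KO3. The dimmer Orai1 probe set became -0.15 with quantile normalization, -0.094 with centring, -0.054 with array weights and -0.19 without KO2 and KO3, and ran from -0.42 to 0.46 with 1 library left out. The brighter (0.34) became -0.26 without KO2 and KO3, and ran from -0.32 to 1.01 with 1 left out. Both Stim2 and both Stim1 probe sets stayed above 0, and Orai2 and Orai3 below 0, in every alternative in which they were tested, but their sizes moved: Orai3 ran from -0.79 without WT2 to -0.06 without WT1, and the dimmer Stim1 probe set (0.52) stood at 0.14 without WT2 and 0.90 without WT1.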
